A study of Mus musculus with 12 samples.

Results

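The 9 genes described here encode enzymes of the tricarboxylic acid cycle: Cs, Idh3a, Idh3b, Idh3g, Idh2, Ogdh, Suclg1, Sucla2 and Mdh2. They were taken by gene symbol as enzymes of 1 pathway, with earlier results of these data known, and make up 9 of the 23457 rows of the deposited count table. All 9 passed the filter on low counts that left 13050 genes for testing. Messenger RNA was sequenced from 12 hearts of adult C57BL/6J mice. The 6 Parkin KO hearts carried a floxed Parkin gene together with MERCreMer, and the 6 noninduced hearts were floxed with no Cre. Parkin tags the outer proteins of damaged mitochondria with ubiquitin so that the organelles are cleared, and MERCreMer is a Cre recombinase that enters the nucleus when tamoxifen binds it. Both groups carry a time label of 9 to 10 weeks after tamoxifen. The labels name whole heart as the tissue, while their protocol takes the ventricular apex. The study's title calls the knockout specific to the heart, and the promoter that drives MERCreMer is not given in the sources used here. No heart with MERCreMer and an intact Parkin gene is among the samples, so loss of Parkin and presence of the recombinase cannot be told apart.

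The tricarboxylic acid cycle runs in the mitochondrial matrix. It oxidises the acetyl groups that come from fatty acids, pyruvate and ketone bodies, and it hands the electrons to the respiratory chain as NADH and FADH2. Adult heart muscle draws nearly all of its ATP from this route and holds the cycle enzymes at high levels. Every enzyme described here is encoded in the nucleus and imported into mitochondria.

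Total counts ran from 11610507 to 16884516 per library. Each library is named below by its group and replicate number. Park2, the Parkin gene, was counted with 24 to 45 reads per Parkin KO library and 24 to 45 per noninduced library. This count covers the whole gene and the floxed part is not given in the sources used here, so it does not check the deletion. Esr1, the gene whose mutated hormone-binding part makes up the MER segments of MERCreMer, had 1553 to 4683 CPM (counts scaled to a common library size) in Parkin KO libraries and 24.0 to 962 CPM in noninduced libraries. The libraries labelled noninduced 1 and 3 held 558 and 962 CPM of it, while the remaining noninduced libraries held 24.0 to 64.9 CPM, so those labels are in doubt. Reads of 4 Y-linked genes numbered 495 to 634 in Parkin KO libraries 2, 5 and 6 and 178 in the library labelled noninduced 3, and at most 7 elsewhere. Xist, the other sex-linked gene read, had 0.704 to 5.25 CPM in Parkin KO libraries 2, 5 and 6. It had 77.2 CPM in the library labelled noninduced 3, which so held both signals, and 84.2 to 133 CPM elsewhere. The sex term used below rests on Y-linked reads alone, with a cut at 100, and sets noninduced 3 with Parkin KO libraries 2, 5 and 6. The 10 cardiomyocyte markers summed to 88200 to 108000 CPM in Parkin KO libraries and 67600 to 102000 CPM in noninduced libraries, and none of the 10 was at 0 in all libraries. The fold change was above 0 for 9 of these 10, with a median of 0.12 on the log2 scale and 2 higher at an unadjusted p under 0.05. Of all tested genes, 52% had a fold change above 0 and 5.82% were higher at that p (edgeR). The 13 protein-coding genes of mitochondrial DNA took 7.11 ± 1.65% of counts in Parkin KO hearts, against 10.3 ± 4.06% in noninduced hearts (SD, n = 6 each, exact two-sided permutation p = 0.115). All 13 had a negative fold change, with a median of -0.66 on the log2 scale. At an unadjusted p under 0.05, 8 were lower, against 5.54% of all tested genes, and 0 passed after adjustment (edgeR).

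The start regions of 4 of the genes are shown because their fold changes lie at the ends of the range. Idh2, Suclg1 and Idh3b had the highest fold changes of the 9, and Idh3g was the only 1 of the 9 with a negative value. Sequences are RefSeq windows on GRCm38.p6 from 250 bases before to 50 bases after a transcript start, printed along the gene's own strand. The windows are chr7:80115301-80115600 on the minus strand for Idh2, chr6:73248255-73248554 on the plus strand for Suclg1, chr2:130284402-130284701 on the minus strand for Idh3b and chrX:73786848-73787147 on the minus strand for Idh3g. Capitals mark matches on either strand to 6 motifs. These are AAGGTCA, an element of estrogen-related receptors, GCATGCG, the core of the NRF1 site, the CCAAT box, the GC box GGGCGG, the TATA box TATAAA and ATGGCGG, the core of the YY1 site.
Idh2: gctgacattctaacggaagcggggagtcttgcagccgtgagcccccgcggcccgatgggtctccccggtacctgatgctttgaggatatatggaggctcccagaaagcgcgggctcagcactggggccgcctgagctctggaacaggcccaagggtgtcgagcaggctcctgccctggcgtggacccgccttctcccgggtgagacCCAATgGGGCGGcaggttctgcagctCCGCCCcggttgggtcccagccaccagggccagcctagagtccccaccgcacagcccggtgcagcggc
Suclg1: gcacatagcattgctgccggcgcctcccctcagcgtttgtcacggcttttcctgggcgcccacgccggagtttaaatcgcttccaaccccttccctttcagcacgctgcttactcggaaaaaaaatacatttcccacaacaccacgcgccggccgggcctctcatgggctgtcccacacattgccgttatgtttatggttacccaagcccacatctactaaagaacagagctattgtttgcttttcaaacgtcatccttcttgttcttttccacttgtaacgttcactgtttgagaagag
Idh3b: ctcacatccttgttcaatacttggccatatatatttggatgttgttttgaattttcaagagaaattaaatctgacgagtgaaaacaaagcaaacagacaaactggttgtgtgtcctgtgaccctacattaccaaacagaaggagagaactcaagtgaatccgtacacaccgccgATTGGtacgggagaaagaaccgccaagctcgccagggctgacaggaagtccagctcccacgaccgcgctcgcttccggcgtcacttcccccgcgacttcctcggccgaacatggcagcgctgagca
Idh3g: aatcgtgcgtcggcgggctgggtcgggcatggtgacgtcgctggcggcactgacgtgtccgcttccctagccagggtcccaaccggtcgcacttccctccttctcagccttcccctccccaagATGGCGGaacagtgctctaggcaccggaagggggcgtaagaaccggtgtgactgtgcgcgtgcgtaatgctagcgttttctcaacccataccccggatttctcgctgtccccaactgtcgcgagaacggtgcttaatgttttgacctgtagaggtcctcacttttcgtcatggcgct

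The Idh2 window held a CCAAT box at -44, a GC box at -38 and a GC box on the opposite strand at -18, counted from the start to the first base of the match on the gene's strand. The Idh3b window held 1 CCAAT box on the opposite strand at -76. The Idh3g window held 1 YY1 core at -127, and the Suclg1 window held none of the 6 motifs. The CCAAT box was present in 37.4% of all 32851 windows, the GC box in 35.7% and the YY1 core in 4.05%. The reference tables give a window for 8 of the 9 genes, with Idh3a the exception. Among these 8 genes, 4 had a CCAAT box, 5 a GC box, 3 a YY1 core and 0 a TATA box, which 13.6% of all windows hold. A gene was counted if any of its windows held the motif, so these counts are not on the same scale as the shares of single windows. Ogdh is among the genes counted for the CCAAT box, the GC box and the YY1 core. The estrogen-related receptor element (4.72% of all windows) and the NRF1 core (3.58%) were each found in windows of Ogdh alone, which has 6 start windows. The GC content was 68.3% for Idh2, 51.0% for Suclg1, 50.3% for Idh3b and 60.3% for Idh3g, with a median of 52.7% over all windows.

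Levels of the 9 messenger RNAs are compared with each other by the authors' FPKM values (fragments scaled to transcript length and library size). Mdh2, which oxidises malate to oxaloacetate and closes the cycle, was highest, at 1610 ± 139 FPKM in Parkin KO and 1480 ± 153 FPKM in noninduced hearts (SD, n = 6 each). Idh2 followed at 1240 ± 91.9 FPKM in Parkin KO and 943 ± 143 FPKM in noninduced hearts. In every library Mdh2 stood above Idh2, and Idh2 above Ogdh. Ogdh averaged 654 ± 40.1 FPKM in Parkin KO and 628 ± 70.4 FPKM in noninduced hearts, and Idh3g 653 ± 73.0 FPKM in Parkin KO and 680 ± 137 FPKM in noninduced hearts, and they overlapped in both groups. Ogdh was the higher of this pair in 5 of 12 libraries. Idh3g also overlapped with Cs, the next gene down, although it was above Cs in each of the 12 libraries. Cs averaged 555 ± 34.3 FPKM in Parkin KO and 481 ± 77.9 FPKM in noninduced hearts, and Idh3b 344 ± 29.2 FPKM in Parkin KO and 281 ± 46.7 FPKM in noninduced hearts. Suclg1 averaged 258 ± 10.8 FPKM in Parkin KO and 204 ± 39.4 FPKM in noninduced hearts, and overlapped with Idh3b in noninduced hearts. Idh3a averaged 134 ± 6.31 FPKM in Parkin KO and 125 ± 13.8 FPKM in noninduced hearts. Sucla2 was lowest, at 50.8 ± 14.8 FPKM in Parkin KO and 42.4 ± 10.2 FPKM in noninduced hearts. The order of means was the same in both groups except that Ogdh and Idh3g changed places.

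The comparison asks whether the RNA of the cycle differs between Parkin KO and noninduced hearts. Loss of Parkin and presence of the recombinase go together in it, and the groups also differ in the sex-linked reads given above. No enzyme passed the test: 0 of the 9 had an adjusted p under 0.05 in the quasi-likelihood F test of edgeR (Benjamini-Hochberg adjustment over all genes), where 0% of the 13050 tested genes passed. DESeq2 called Idh2 alone among the 9 (adjusted p = 0.0354), with Idh2 higher in Parkin KO; it called 0.0853% of 11726 genes in all and 0.0341% as higher. Limma-voom called none, with 1347 genes at an unadjusted p under 0.05 against 1483 in edgeR. At an unadjusted p under 0.05 edgeR had 3 of the 9 higher in Parkin KO, against 5.82% of all genes, and 0 lower, against 5.54% of all genes. The fitted log2 fold change was above 0 for 8 of the 9, with a median of 0.18, against 52% and a median of 0.0098 over all tested genes. Without noninduced replicate 6 it was above 0 for 6 of the 9 with a median of 0.09. Without the libraries labelled noninduced 1 and 3 it was above 0 for all 9 with a median of 0.22. Among libraries with under 100 Y-linked reads the median was 0.13, with 8 of the 9 above 0. For no enzyme were all Parkin KO libraries outside the range of the noninduced libraries, and 0.23% of all genes were separated in that way with Parkin KO higher.

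Cs encodes citrate synthase, which joins acetyl-CoA to oxaloacetate at the entry of the cycle and is widely used as a measure of mitochondrial content. Its lowest, median and highest values were 1377, 1463 and 1699 CPM in Parkin KO hearts, against 949, 1313 and 1531 CPM in noninduced hearts. All 6 Parkin KO hearts lay above the noninduced mean, but the ranges overlapped, and noninduced replicate 6 was lowest of all. The log2 fold change was 0.18 ± 0.115 (SE) with a 95% confidence interval of -0.0651 to 0.424 (edgeR, adjusted p = 0.526). Without noninduced replicate 6 it was 0.09.

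Idh2 encodes the NADP-dependent isocitrate dehydrogenase of the matrix, which makes NADPH for the defence against peroxides. It had 1756, 1951 and 2062 CPM in Parkin KO hearts as lowest, median and highest values, against 1316, 1458 and 1773 CPM in noninduced hearts. Noninduced replicate 4, at 1773 CPM, was the only noninduced heart above the lowest Parkin KO heart, and 5 of 6 Parkin KO hearts lay above every noninduced heart. With a log2 fold change of 0.38 ± 0.0971 (SE), or 1.3-fold, and an interval of 0.169 to 0.583, it ranked 34th by p of 13050 genes and did not pass (edgeR, adjusted p = 0.417). Across the alternatives run, its log2 fold change ran from 0.32 to 0.42 and its adjusted p from 0.0354 to 0.949. Per length, in FPKM, Idh2 stood at 54.2 ± 8.0 times its cytosolic counterpart Idh1 in Parkin KO hearts, against 49.5 ± 11.6 times in noninduced hearts. Idh1 had 49.8 ± 8.44 CPM in Parkin KO hearts, against 42.1 ± 4.96 CPM in noninduced hearts (SD, n = 6 each), with a log2 fold change of 0.24 ± 0.115 (edgeR, adjusted p = 0.438).

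The NAD-dependent isocitrate dehydrogenase, a regulated step of the cycle, is built from the catalytic alpha subunit (Idh3a) and the beta and gamma subunits (Idh3b and Idh3g). Idh3a had 278, 305 and 338 CPM as lowest, median and highest values in Parkin KO hearts, against 213, 301 and 329 CPM in noninduced hearts. Idh3b had 423, 455 and 531 CPM in Parkin KO hearts, against 314, 382 and 464 CPM in noninduced hearts. Idh3g had 690.0, 730.1 and 979 CPM in Parkin KO hearts, against 502, 849 and 1123 CPM in noninduced hearts. The medians of the subunits did not share a direction: they were close for Idh3a, higher in Parkin KO for Idh3b and lower in Parkin KO for Idh3g, and the ranges overlapped for each. Log2 fold changes were 0.07 ± 0.0975 for Idh3a, 0.28 ± 0.102 for Idh3b and -0.10 ± 0.165 for Idh3g (SE; edgeR, adjusted p = 0.762, 0.424 and 0.813). The sign for Idh3a was negative without noninduced replicate 6 (-0.01). The sign for Idh3g was positive without the libraries labelled noninduced 1 and 3 (0.09) and without noninduced libraries 1 and 2 (0.08), which had the highest share of counts from mitochondrial DNA and were left out together as a choice made after seeing the data. It was -0.22 without noninduced replicate 6. The library of highest Idh3g was noninduced 1, at 1123 CPM, and among Parkin KO libraries replicate 2 stood apart at 979 CPM.

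Ogdh encodes the first component of the 2-oxoglutarate dehydrogenase complex, which makes succinyl-CoA and NADH. Its lowest, median and highest values were 3879, 4304 and 5004 CPM in Parkin KO hearts, against 3160, 4486 and 4923 CPM in noninduced hearts. Noninduced hearts spread from below the lowest Parkin KO heart to near the highest. Its log2 fold change of 0.03 ± 0.127 (SE; edgeR, adjusted p = 0.934) had an interval of -0.243 to 0.299 and turned negative when Parkin KO replicate 2, noninduced replicate 5 or noninduced replicate 6 was left out, and with a sex term. Dlst and Dld encode the other components of the same complex. Dlst had a log2 fold change of 0.12 ± 0.0994 and Dld one of 0.31 ± 0.117 (edgeR, adjusted p = 0.623 and 0.424).

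Succinyl-CoA synthetase, the step that makes GTP or ATP directly, pairs the shared alpha subunit Suclg1 with the ATP-forming beta subunit Sucla2 or the GTP-forming beta subunit Suclg2. Suclg1 had 301, 317 and 334 CPM as lowest, median and highest values in Parkin KO hearts, against 214, 242 and 310 CPM in noninduced hearts. As for Idh2, noninduced replicate 4 alone reached into the Parkin KO range, and 5 of 6 Parkin KO hearts lay above every noninduced heart, though Parkin KO replicate 5 only at 309.8 CPM against 309.7 CPM in noninduced replicate 4. In the authors' FPKM only 2 of 6 Parkin KO hearts lay above every noninduced heart for Suclg1 and 3 of 6 for Idh2. The log2 fold change was 0.32 ± 0.0971 (SE), or 1.25-fold, with an interval of 0.116 to 0.531 (edgeR, adjusted p = 0.417). Without noninduced libraries 1 and 2 it was 0.23. Sucla2 had 52.0, 102 and 134 CPM in Parkin KO hearts, against 60.9, 87.0 and 100.2 CPM in noninduced hearts. Parkin KO replicate 3 was the lowest of all 12 hearts for Sucla2 and replicate 6 of the same group the highest. The log2 fold change of Sucla2 was 0.25 ± 0.190 (edgeR, adjusted p = 0.585), and it was 0.10 without noninduced libraries 1 and 2, 0.14 without Parkin KO replicate 6 and 0.37 without Parkin KO replicate 3. Suclg2 averaged 94.8 ± 9.46 CPM in Parkin KO hearts, against 81.9 ± 13.2 CPM in noninduced hearts (SD, n = 6 each), with a log2 fold change of 0.21 ± 0.107 (SE; edgeR, adjusted p = 0.448).

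Mdh2 had 1548, 1788 and 1995 CPM as lowest, median and highest values in Parkin KO hearts, against 1281, 1799 and 1929 CPM in noninduced hearts. The medians differed by less than the spread within either group. The log2 fold change was 0.09 ± 0.117 (SE; edgeR, adjusted p = 0.754), and it was 0.01 without noninduced replicate 6. Mdh1, the cytosolic malate dehydrogenase of the malate-aspartate shuttle, had a log2 fold change of 0.22 ± 0.12 (edgeR, adjusted p = 0.461). The 95% intervals of the 9 enzymes all lay within 1 log2 unit of 0, from -0.452 as the lowest bound (Idh3g) to 0.655 as the highest (Sucla2).

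**Figure D1:**
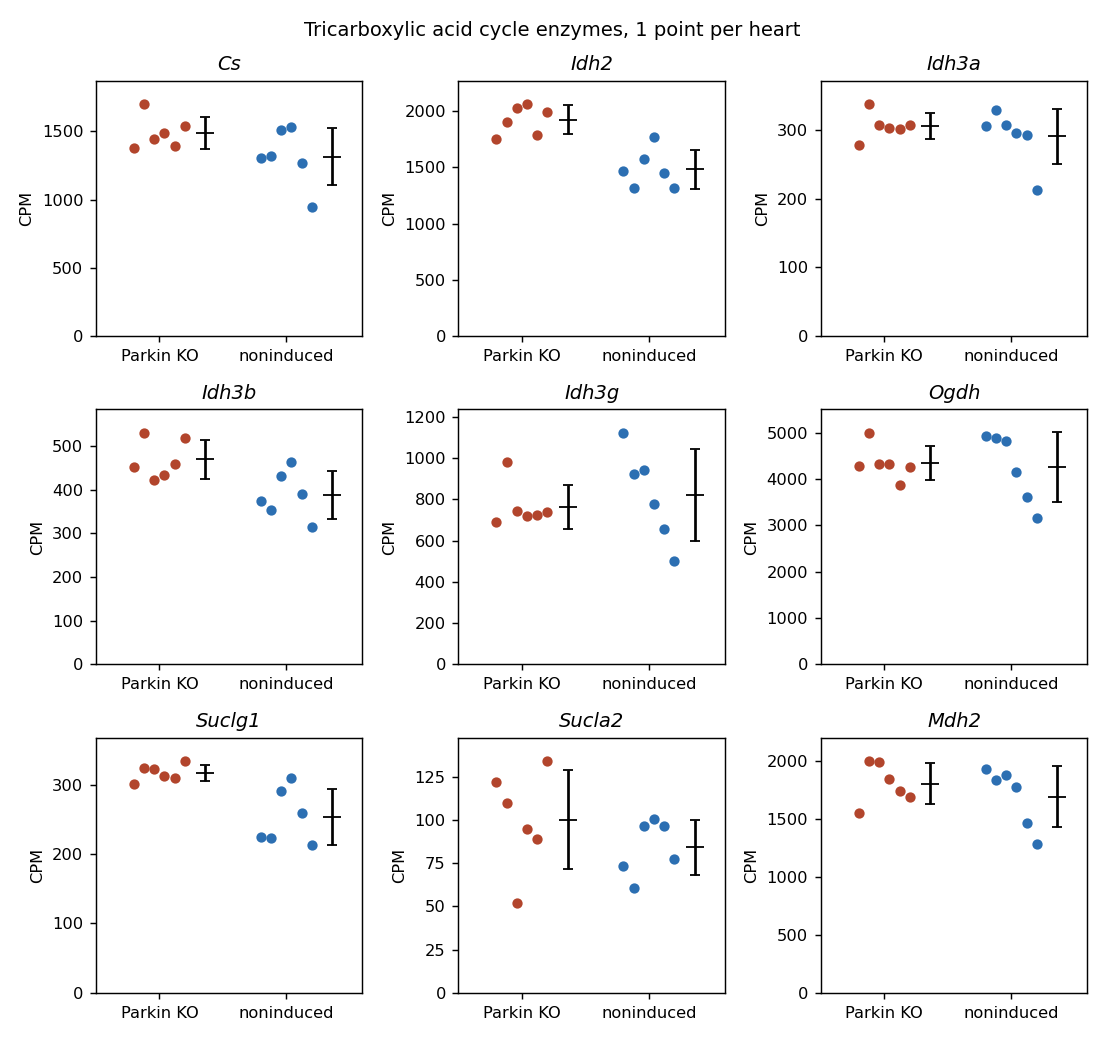
CPM (vertical axis, from 0) of the 9 enzymes in 6 Parkin KO hearts (red, left) and 6 noninduced hearts (blue, right), with 1 point per heart and replicates 1 to 6 from left to right in each group. Black bars give the mean and SD. For Idh2 and Suclg1 only noninduced replicate 4 reaches into the Parkin KO range, and for Idh3g the noninduced hearts spread from 502 to 1123 CPM around the Parkin KO hearts.

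Spread between hearts was described by the coefficient of variation, with no test. The coefficient of variation was larger in noninduced than in Parkin KO hearts for 8 of the 9 enzymes, as it was for 64.5% of all tested genes. For Suclg1 it was 3.68% in Parkin KO and 15.7% in noninduced hearts, and for Idh3g 13.9% and 27.1% in the same groups. Sucla2 was the exception, at 28.8% in Parkin KO and 19.0% in noninduced hearts. Noninduced replicate 6 was the lowest of all 12 hearts for 8 of the 9 enzymes, all but Sucla2, and for 6 of the other 9 enzymes of the cycle. In that library the 10 cardiomyocyte markers summed to 67600 CPM, the lowest of the 12, the 8 fibroblast markers to 1770 CPM, the highest of the 12, and the 6 atrial markers to 4080 CPM, the second highest. Fibroblast markers summed to 597 to 1180 CPM in Parkin KO libraries and 686 to 1770 CPM in noninduced libraries. A negative fold change was found for 6 of the 8, where 52% of all tested genes were above 0. The 6 atrial markers summed to 158 to 1550 CPM in Parkin KO libraries and 121 to 5990 CPM in noninduced libraries. All 6 had a negative fold change with an unadjusted p under 0.05, against 5.54% of all tested genes, though 0 passed after adjustment (edgeR). Endothelial markers summed to 886 to 1050 CPM in Parkin KO libraries, against 864 to 1080 CPM in noninduced libraries, and no marker of these lists was at 0 in all libraries. The part of cell makeup in the values of the enzymes was not tested, and in whole tissue fewer muscle cells and less RNA per cell cannot be told apart.

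**Figure D2:**
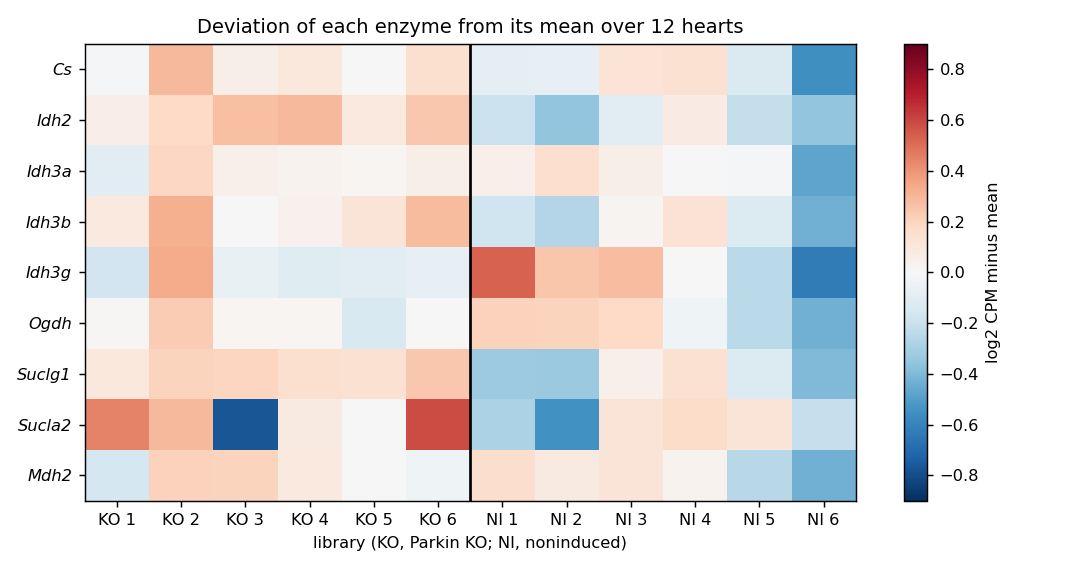
Deviation of log2 CPM of each enzyme (rows) from its mean over the 12 hearts (columns, Parkin KO left of the line and noninduced right of it), in log2 units by colour. Noninduced replicate 6 is blue in every row, Sucla2 is lowest in Parkin KO replicate 3 at -0.77, and Idh3g is highest in noninduced replicate 1 at 0.53.

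Over the hearts some of the enzymes followed each other and others did not. Of their 36 pairs, 15 had a Pearson correlation of log2 CPM with an adjusted p under 0.05 over the 12 hearts (permutation test, Benjamini-Hochberg over 36), and the median correlation was 0.527. Without the 2 hearts farthest from the median of the first gene, 12 of the 15 kept an r of at least 0.550. The other 3, all with Cs, rested on those hearts: r was 0.011 for Cs with Idh3a (0.845 over all hearts), 0.077 for Cs with Ogdh (0.699) and 0.318 for Cs with Mdh2 (0.771). Idh2 and Suclg1 were closest, with r = 0.932 and rho = 0.930 (permutation p = 2e-05 and 4e-05, adjusted p = 0.00036 and 0.00144). Their r was 0.865 without the 2 hearts farthest from the median of Idh2, 0.626 within Parkin KO hearts and 0.913 within noninduced hearts. Idh3g and Ogdh had r = 0.928 and rho = 0.825 (permutation p = 7e-05 and 0.00171, adjusted p = 0.00072 and 0.00879). Their r was 0.892 without the 2 hearts farthest from the median of Idh3g, 0.841 within Parkin KO hearts and 0.973 within noninduced hearts. Across these pairs no relation passed. Idh3g and Suclg1 had r = 0.036 and rho = 0.133 (permutation p = 0.914 and 0.685, adjusted p = 0.938 and 0.796), with r = -0.173 without the 2 farthest hearts, 0.459 within Parkin KO hearts and 0.149 within noninduced hearts. Ogdh and Suclg1 had r = 0.206 and rho = 0.154 (permutation p = 0.528 and 0.636, adjusted p = 0.613 and 0.764), with r = -0.563 without the 2 farthest hearts, 0.357 within Parkin KO hearts and 0.166 within noninduced hearts. All CPM values of a heart share its library size, and noninduced replicate 6 was low for nearly every enzyme.

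The share of counts from mitochondrial DNA was set against each enzyme, and 0 of 9 relations passed after adjustment. Over the 12 hearts its Pearson correlation with log2 CPM was -0.649 for Suclg1, -0.643 for Idh2 and 0.654 for Idh3g, with a permutation p of 0.0252, 0.0206 and 0.0219 (adjusted p = 0.0755 for each, over 9). Spearman's rho was -0.483, -0.580 and 0.510 for the same genes (permutation p = 0.115, 0.052 and 0.0941, adjusted p = 0.258 for each). Without noninduced libraries 1 and 2, the hearts farthest from the median share at 15.2% and 15.4%, r was -0.148 for Suclg1, -0.428 for Idh2 and 0.371 for Idh3g, so that these relations rest in part on those hearts. Within Parkin KO hearts r was -0.102, -0.738 and 0.464, and within noninduced hearts -0.528, -0.429 and 0.738, in the same order of genes. Its part in the fold changes was not tested.

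Ratios between subunits and related enzymes, taken within each heart, were compared for 10 pairs of genes. None passed after adjustment over the 10 (exact two-sided permutation tests over 924 splits, smallest adjusted p = 0.173). Idh2 over Idh3a had the smallest p, with a mean log2 ratio of CPM of 2.65 ± 0.0999 in Parkin KO and 2.36 ± 0.229 in noninduced hearts (SD, n = 6 each), a difference of 0.30 (exact permutation p = 0.0173, adjusted p = 0.173). Idh3a over Idh3b was -0.616 ± 0.108 in Parkin KO and -0.417 ± 0.197 in noninduced hearts, a difference of -0.20 (exact permutation p = 0.0498, adjusted p = 0.179). Ogdh over Dlst differed by -0.08 (exact permutation p = 0.0541, adjusted p = 0.179). The ratio of Idh3b to Idh3g ran from -0.883 to -0.509 in Parkin KO and from -1.58 to -0.677 in noninduced hearts (difference 0.34, exact permutation p = 0.0714, adjusted p = 0.179). Without the libraries labelled noninduced 1 and 3 the difference was 0.19 for this ratio and 0.0041 for Idh3a over Idh3g, which was 0.15 with all hearts. Per length, in the authors' FPKM, Idh3a stood at 0.391 ± 0.0295 of Idh3b in Parkin KO and 0.451 ± 0.0636 in noninduced hearts, and at 0.206 ± 0.015 of Idh3g in Parkin KO and 0.189 ± 0.0329 in noninduced hearts. Sucla2 and Suclg2, the alternative beta subunits, were near equal per length, with a ratio of 1.14 ± 0.271 in Parkin KO and 1.12 ± 0.103 in noninduced hearts. Parkin KO replicate 3 had the lowest ratio of the 12 hearts, at 0.707.

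**Figure D3:**
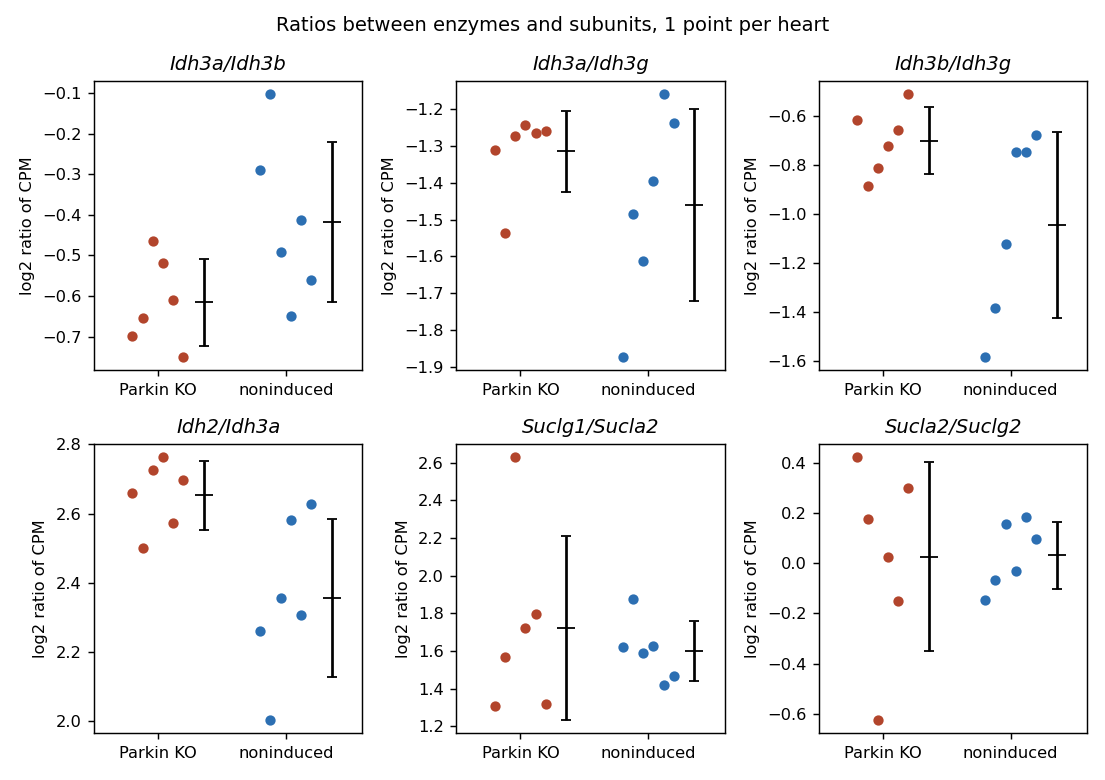
Log2 ratios of CPM (vertical axes) for 6 pairs of genes in Parkin KO hearts (red, left) and noninduced hearts (blue, right), with 1 point per heart, replicates 1 to 6 from left to right and black bars for the mean and SD. Ranges of both groups overlap in every panel, and Parkin KO replicate 3 is highest for Suclg1 over Sucla2 at 2.63.

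The other 9 enzymes of the cycle had 0 past the test, with 8 fold changes above 0 and 1 below it. Their median was 0.19 on the log2 scale. At an unadjusted p under 0.05, 5 of them were higher and 0 lower, where all tested genes have shares of 5.82% and 5.54%, with 52% of fold changes above 0. Succinate dehydrogenase, which is also complex II of the respiratory chain, had fold changes of 0.31 ± 0.121 for Sdha, 0.23 ± 0.0892 for Sdhb and 0.19 ± 0.0787 for Sdhd (log2, SE; edgeR, adjusted p = 0.424 for each). Sdhc, a membrane anchor of the same complex, was at -0.16 ± 0.182 (adjusted p = 0.711) with the opposite sign. That sign rests on the library labelled noninduced 1, which held 965 CPM of Sdhc against 373 to 618 CPM in the other noninduced hearts, and the value was 0.02 without it, 0.06 without noninduced libraries 1 and 3 and 0.09 without noninduced libraries 1 and 2. Fh1, fumarase, was at 0.19 ± 0.0878 (adjusted p = 0.438).

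**Figure D4:**
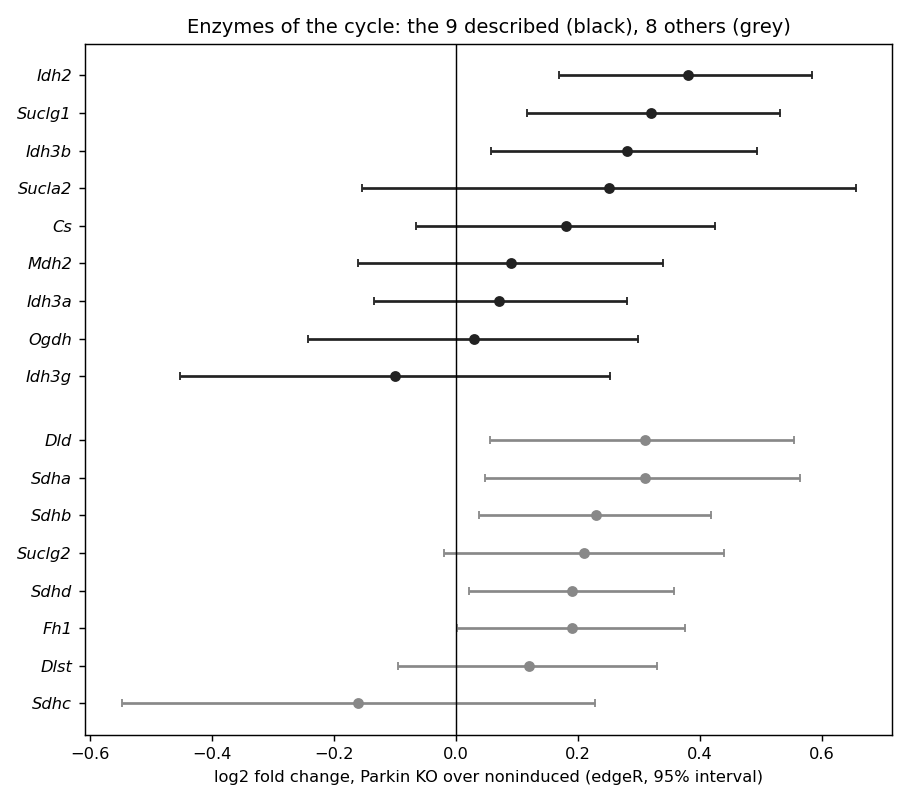
Log2 fold changes of Parkin KO over noninduced hearts (horizontal axis) with 95% confidence intervals from edgeR for the 9 enzymes described (black, above) and 8 others of the cycle (grey, below). Points run from 0.38 for Idh2 to -0.16 for Sdhc, and none passed after adjustment over all genes.

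Genes that feed or drain the cycle were read from 4 further lists, in which 0 genes passed, and their counts stand against the same shares over all genes. Of pyruvate import and pyruvate dehydrogenase genes, 11 of 12 were tested, 8 had a fold change above 0 and 3 below it, the median was 0.20 (log2), and 5 were higher and 0 lower at an unadjusted p under 0.05. Pdk4, a kinase that switches pyruvate dehydrogenase off, was at 0.97 ± 0.345, Mpc1 of the pyruvate carrier at 0.39 ± 0.169 and Pdha1, the catalytic subunit, at 0.29 ± 0.0985 (SE; edgeR, adjusted p = 0.417, 0.424 and 0.417). Pdk4 was at 0.40 with a sex term and at 0.13 among libraries with under 100 Y-linked reads. Mpc1 was at 0.15 without noninduced libraries 1 and 2. Of 23 genes of supply and exchange, 18 had a fold change above 0, the median was 0.11, and 3 were higher and 0 lower at an unadjusted p under 0.05. These were the malic enzyme Me1 (0.39 ± 0.132), the glutamate dehydrogenase Glud1 (0.25 ± 0.0824) and the cytosolic aconitase Aco1 (0.25 ± 0.108). Without noninduced libraries 1 and 2, Me1 was at 0.20 and Aco1 at 0.11. Of 16 genes of assembly, cofactors and control, 14 had a fold change above 0, the median was 0.20, and 4 were higher and 0 lower at an unadjusted p under 0.05. Among them were Iba57 of iron-sulfur cluster assembly (0.39 ± 0.128), the lipoate synthase Lias (0.22 ± 0.0819) and the desuccinylase Sirt5 (0.20 ± 0.0818). Of the genes named from these 4 lists, Lias alone had groups that did not overlap in CPM. The margin was thin, at 29.06 CPM in the lowest Parkin KO heart against 29.0 CPM in the highest noninduced heart. It had 30.8 ± 2.42 CPM in Parkin KO hearts, against 26.5 ± 2.26 CPM in noninduced hearts (SD, n = 6 each), with an adjusted p of 0.424 in edgeR. Separation in CPM with Parkin KO higher was seen for 0.23% of all tested genes. In the authors' FPKM only 2 of 6 Parkin KO hearts lay above every noninduced heart for Lias. Ogdhl, a relative of Ogdh, was at 0.30 ± 0.195 (adjusted p = 0.530).

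Of 11 transcriptional regulators of mitochondrial genes, 7 had a fold change above 0 and 4 below it, the median was 0.05 (log2), and 0 reached an unadjusted p under 0.05 in either direction. The estrogen-related receptor Esrra was at 0.18 ± 0.0992, the respiratory factor Nrf1 at 0.16 ± 0.112, Gabpa at 0.11 ± 0.0978 and the coactivator Ppargc1a at -0.10 ± 0.252 (SE; edgeR, adjusted p = 0.473, 0.570, 0.628 and 0.885). The sign of Ppargc1a turned without noninduced replicate 2 (0.06), without noninduced libraries 1 and 2 (0.12) and among libraries with under 100 Y-linked reads (0.02).

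Genes among the 5 whose level followed the mean of the 9 enzymes most closely were found by Pearson's r of log2 CPM over the 12 hearts, as a description of genes chosen for this likeness. They were Sod2, the superoxide dismutase of the matrix (0.957), Fhl2 (0.936), Ccbl2 (0.935) and Hrc, a calcium-binding protein of the sarcoplasmic reticulum (0.925). With the group means taken out, they were the potassium channel genes Kcnj2 (0.975) and Kcnd2 (0.945), Slc20a2 (0.944), Sod2 (0.942) and Mapk14 (0.929). None of these genes passed between the groups (edgeR, adjusted p from 0.438 for Sod2 to 0.862 for Kcnj2). Among the 9 enzymes themselves, Cs lay closest to the mean (0.978 over the 12 hearts) and Sucla2 farthest from it (0.464). Each enzyme is part of that mean, which raises its r, so these values do not compare with those of the genes outside it.

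On GRCm38, Cs lies on chromosome 10 from 128337734 to 128362479, Idh2 on chromosome 7 from 80094846 to 80115392, Idh3a on chromosome 9 from 54586334 to 54604661 and Idh3b on chromosome 2 from 130279309 to 130284547. Idh3g lies on chromosome X from 73778963 to 73786897, Ogdh on chromosome 11 from 6291633 to 6356642 and Suclg1 on chromosome 6 from 73248382 to 73276911. Sucla2 lies on chromosome 14 from 73525319 to 73596142 and Mdh2 on chromosome 5 from 135778480 to 135790398. All 9 are protein-coding in GENCODE, and only Idh3b shares exon bases with another gene, 0.146% of them with Nop56 on the opposite strand. Idh3g is the only X-linked enzyme of the 9, and within the Parkin KO group its level was 979, 723 and 737 CPM in the libraries with Y-linked reads (replicates 2, 5 and 6) and 690.0, 741 and 718 CPM in the others.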

How the data were processed

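The authors deposited whole read counts per gene symbol and, in a second table, FPKM values per gene, for 12 libraries each. Build mm10, TopHat2 2.0.10, Bowtie2, HTSeq, Cufflinks 2.1, DESeq and edgeR are named, per the submitters' processing notes. Per the labels' protocols RNA was selected for poly(A) and the single-end libraries do not keep strand. Which annotation and counting mode they used was not stated. Columns headed as wild type were taken as noninduced hearts of the same number. Each library has its own title and the design text counts hearts, which is all that says that replicates are separate animals.

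Counts were tested in R 4.3.3 with edgeR 4.0.16 (TMM, filterByExpr, quasi-likelihood F test, two-sided, group term alone), with Benjamini-Hochberg adjustment over 13050 genes and a threshold of 0.05. SEs and intervals derive from the F statistic and are approximate. CPM uses TMM-scaled library sizes, and 1 count was worth 0.0547 to 0.0947 CPM, so counting error is small beside the spread for the enzymes. Correlations use log2(CPM + 0.5). DESeq2 1.42.0, limma 3.58.1, other scalings, no low-count filter, log2(FPKM + 1) and log2(FPKM + 0.1), a sex term and left-out libraries were alternatives. FPKM rows listed at 0 despite over 1000 counts (4 genes) were left out. The code was tested on simulated data for this comparison, where edgeR over 12950 genes recovered 53.7% of 1.5-fold and 86.6% of 2-fold changes. Genes were drawn independently there, without shifts shared by a library. The smallest fold simulated was 1.5, while the largest among the enzymes was 1.3 (Idh2). These shares therefore do not give the recovery at the sizes seen. The enzymes and lists were chosen with earlier results of these data known. The genes named are all 18 cycle enzymes, the 3 of smallest p per further list, 6 set by name (Idh1, Mdh1, Suclg2, Ogdhl, Ppargc1a and Esrra) and the 5 most alike, except 2 genes that are not reported here by name. Markers of other cells were read as sums. Macrophage, smooth muscle, red blood cell (2 of 4 at 0 throughout) and adipocyte markers summed to 172 to 287, 625 to 798, 547 to 1450 and 0.142 to 2.16 CPM in Parkin KO and to 213 to 274, 639 to 977, 814 to 1410 and 0.11 to 7.48 CPM in noninduced libraries.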

Additional observations from a re-analysis of the deposited data

Results flagged for a closer look

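The gap between an extreme heart and its nearest neighbour was set against the range of its group. The 9 enzymes and 10 ratios in both groups gave 38 sets of 6 values. Of these sets, 5 passed Dixon's 95% limit, where chance gives about 1 in 20. Ratios share genes and hearts with the enzymes and with each other, so the flags are not independent. An excess over that rate was not tested. Idh3g was 979 CPM in Parkin KO replicate 2, far above the other Parkin KO hearts, and the same heart had the lowest log2 ratio of Idh3a to Idh3g in its group, at -1.54. Idh3a was 213 CPM in noninduced replicate 6, far below the other noninduced hearts. Parkin KO replicate 3 had the highest log2 ratio of Suclg1 to Sucla2, at 2.63, and of Suclg1 to Suclg2, at 2.01. The cause was not tested for any of them.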

How the results depend on the processing

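The number of genes called was 0 with edgeR and under 23 of 25 alternatives, but 10 with DESeq2 and 1 without noninduced libraries 1 and 3. The number of enzymes called was 0 except with DESeq2, where it was 1 (Idh2, log2 fold change 0.36). Genes at an unadjusted p under 0.05 numbered 1483, and 932 to 2131 on leaving out 1 heart. The median of the enzymes, 0.18, ran from 0.09 to 0.22 over the 25 alternatives. Cs, Idh2, Idh3b, Suclg1, Sucla2 and Mdh2 were positive in all 25. Signs turned for Idh3a (-0.01 to 0.10 on leaving out 1 heart), Ogdh (-0.05 to 0.07 on leaving out 1 heart, -0.00098 with a sex term) and Idh3g (0.09 without noninduced libraries 1 and 3, and 0.08 without noninduced libraries 1 and 2, a choice made after seeing the data). Among ratios, 0 of 10 passed under 16 alternatives. With a replicate block, or among libraries with under 100 Y-linked reads, the rearrangements are few. No ratio could pass there on its own, so the lack of calls in these settings says little. Signs turned on leaving out 1 heart for Suclg1 over Sucla2 (-0.06 to 0.21) and Sucla2 over Suclg2 (-0.09 to 0.12), and without noninduced libraries 1 and 3 for Mdh2 over Mdh1 (0.03). Some values of similar size, such as 0.09 for Mdh2, kept their sign throughout, and the cause of the turns was not tested.

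The labels do not say that replicate numbers pair the hearts. Deviations of same-numbered hearts correlated from -0.0991 to 0.166, and 1 of 6 Parkin KO hearts correlated best with its own number. Such low correlations show no pairing but cannot exclude it. With a replicate block 0 genes passed in edgeR, with 1700 at an unadjusted p under 0.05, and the median of the enzymes was 0.19.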
